A study of Homo sapiens with 24 samples.

Results

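The guanylate-binding proteins (GBPs) GBP1, GBP2, GBP3, GBP4 and GBP5 and the apolipoproteins L APOL1, APOL2, APOL3, APOL4 and APOL6 were followed in HepG2, an established line of human liver cancer cells. They are 10 of the 26475 gene symbols in the files, chosen by name from gene clusters that IFNg is known to induce, and all 10 were found. RNA was sequenced after ribosomal RNA depletion in 24 libraries, 3 in each of 8 groups. Cells received the solvent DMSO, 50 nM ABBV-075, or ABBV-744 at a dose of 50 or 500 nM, and in the other 4 groups interferon gamma (IFNg) alone or IFNg with each of those inhibitor treatments. ABBV-075 and ABBV-744 are inhibitors of BET proteins, which bind acetylated histones and help RNA polymerase II transcribe; ABBV-744 prefers the second bromodomain of these proteins. The study's methods give 12 h for ABBV-075 and 24 h for DMSO, without saying whether this DMSO group or that of a second series is meant, and the dose and time of IFNg and the times of ABBV-744 are not given in the sources used here. All 8 groups are the same cell line in culture, so a single genetic background stands behind every value, and the methods call the DMSO and ABBV-075 samples independent, whereas for the other groups it is not stated whether the libraries came from separate cultures.

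GBPs are large GTPases of the dynamin superfamily that are switched on by interferons. They assemble on bacteria and on the vacuoles around pathogens, and they help caspases sense bacterial lipopolysaccharide in the cytosol. APOL proteins are membrane-active proteins. APOL1 is secreted by the liver into lipoprotein particles that lyse trypanosomes, APOL3 disrupts the membranes of bacteria in the cytosol, APOL2 is an intracellular family member, and APOL6 has been linked to cell death. IFNg acts through JAK kinases and transcription factors, among them IRF1, and its target genes carry short DNA elements called GAS and ISRE.

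The GBP members lie together on chromosome 1 and the APOL members on chromosome 22. In GENCODE release 44 on GRCh38, the 5 GBP members, all protein-coding, span 266 kb of chromosome 1, from 89006679 to 89272860, all on the minus strand. The 5 APOL members, also protein-coding, span 619 kb of chromosome 22, from 35648446 to 36267530, with APOL1 and APOL6 on the plus strand and APOL2, APOL3 and APOL4 on the minus strand. Reads were counted over exons. GBP2 overlaps GBP7 on the same strand. Reads that fit several places of the genome were not assigned to a gene. Counts of near-identical stretches, such as those shared by GBP1, GBP3 and GBP1P1, a pseudogene by name, are therefore uncertain.

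Promoter windows of 300 bases, 250 before and 50 after the start of a gene, were given by RefSeq (GRCh38.p14) for GBP1, GBP3 and GBP4 among the 10 members. The windows were searched on both strands for the ISRE core GAAANNGAAA (TTTCNNTTTC on the other strand) and for the GAS element TTCNNNGAA, which reads alike on both strands. All 3 windows held 1 ISRE core, against 3.57% of the 35116 windows in the table. The members were chosen as genes that IFNg induces, and the windows of GBP1 and GBP3 are alike. This share therefore gives a scale and is no test. The windows of GBP6 and GBP7, family members with no read assigned to them in any of the 24 libraries, held neither motif. A link between motifs and counts was not tested. A GAS match, which did not overlap the ISRE core, was found in the window of GBP3 from -15 to -7, and 7.66% of all windows held one. The sequences are shown because they are the stretches that GBP1, GBP3 and GBP4 share by motif; each is 5′ to 3′ on the minus strand and ends with the ISRE core in capitals.
GBP1, chr1:89065326-89065395: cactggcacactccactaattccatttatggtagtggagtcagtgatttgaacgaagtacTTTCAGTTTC
GBP3, chr1:89022855-89022924: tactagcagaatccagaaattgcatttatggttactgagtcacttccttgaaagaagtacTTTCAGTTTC
GBP4, chr1:89198937-89199006: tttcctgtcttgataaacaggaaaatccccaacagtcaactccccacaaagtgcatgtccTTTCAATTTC
Over these 70 bases GBP1 and GBP3 were identical at 54 positions, whereas GBP4 matched GBP1 at 20 and GBP3 at 24. Counted from the RefSeq start, the ISRE core began at -127 in GBP1, at 3 in GBP3 and at -4 in GBP4. Counted from the start of the GENCODE gene it began at 26 in GBP1, at 31 in GBP3 and at -4 in GBP4, because the RefSeq starts of GBP1 and GBP3 lie 152 and 28 bases inside the GENCODE genes. A motif match describes the letters of the window and shows no binding.

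**Figure D1:**
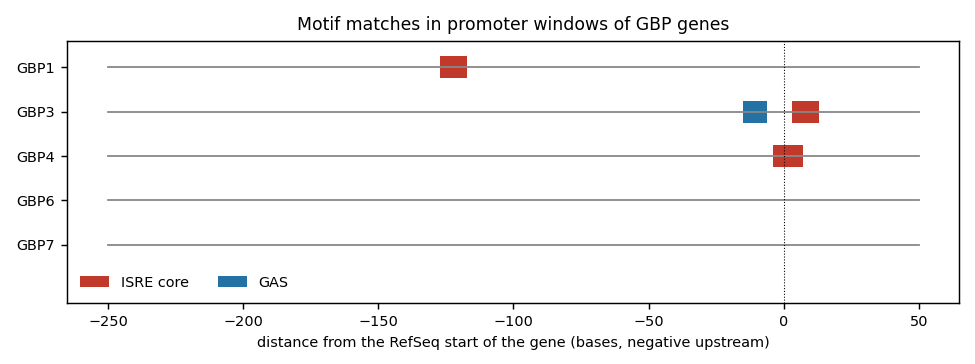
Motif matches in the promoter windows of 5 GBP genes. The horizontal axis is the distance from the RefSeq start in bases, each line is a window of 300 bases, red marks the ISRE core and blue the GAS element. GBP1, GBP3 and GBP4 each hold 1 ISRE core, and GBP6 and GBP7 hold none.

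The libraries held 23037861 to 28925049 reads, of which 2978982 to 4304103 were counted on genes. For a gene with at most 3 counts summed over the libraries of a group, that group was taken to be at the limit of detection. This limit and the intervals of count ratios cover counting error only, since reads without molecular identifiers are not independent molecules. Of the genes that check the labels, IRF1 rose from 12 ± 1.5 CPM (counts scaled to a common library size) in DMSO to 229 ± 21 in IFNg (SD, n = 3 each), and HEXIM1, a gene known to rise under BET inhibition, rose from 53.7 ± 3.1 to 145 ± 7.4 CPM with ABBV-075 and to 89.3 ± 4.9 CPM with ABBV-744 at 500 nM. With ABBV-744 at 50 nM HEXIM1 was not called, at 65 ± 4.1 CPM without IFNg (edgeR adjusted p = 0.0816) and at 49.4 ± 9.4 CPM with IFNg against 47.2 ± 2.3 CPM in IFNg alone (edgeR adjusted p = 0.565). All 8 hepatocyte markers were tested. The leukocyte markers PTPRC and CD3E had 0 counts in all 24 libraries and SPI1 at most 1, whereas LYZ had 3622 to 7873. The summed level of the 4 endothelial markers was at most 2.14 CPM in any library and that of the 4 fibroblast markers between 1.15 and 7.31 CPM; their part in the results was not tested, and KDR, COL1A2 and COL3A1 were at 0 in all 24 libraries. PDGFRB, the fibroblast marker with the most counts, fell with ABBV-075 from 5.25 to 1.52 CPM beside IFNg (log2 fold change -1.76), as did LYZ (-0.54) and CD14 (-2.30). Levels are CPM scaled by TMM, and a value of CPM per kb divides them by the length of the canonical transcript. In bulk RNA, fewer expressing cells and less RNA per cell cannot be told apart.

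IFNg against DMSO asked how strongly the cytokine induced the members. With edgeR's quasi-likelihood test and Benjamini-Hochberg adjustment, 9 of 10 members had enough counts to be tested and all 9 were upregulated, where 2.76% of the 11217 genes tested were called higher. All 9 also passed the study's second threshold, 1.5 on the log2 scale, as did 0.82% of genes. GBP1, GBP4, GBP5, APOL3 and APOL4 had enough counts for the test through their IFNg libraries, so a lower call was hardly open to them. The members were also chosen as genes that IFNg induces, so these shares give a scale and are no test. The median log2 fold change of the 9 members was 3.51, and it was 3.51 also with GBP4 and GBP5 at their lower bounds, whereas the median of all genes tested was -0.00. All 10 members had every IFNg library above every DMSO library, GBP3 included. The share of all genes whose groups do not overlap was not computed, so overlap is given here and below as a description only.

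GBP4 and GBP5 had no read assigned to them without IFNg. GBP4 had 0 counts in each DMSO library and 63, 63 and 45 counts with IFNg, so that its level was at least 66.7-fold higher against the floor of 3 counts over the group. GBP5, which promotes inflammasome assembly, had 0 counts in each DMSO library and 42, 39 and 30 with IFNg, at least 43.3-fold higher. Both genes were at 0 in all 12 libraries without IFNg, with or without an inhibitor.

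GBP1, the member that coats bacteria and recruits other GBPs, had 1, 4 and 6 counts in the DMSO libraries and 81, 91 and 116 with IFNg. The groups were far apart: the fitted log2 fold change was 4.89 (standard error 0.31, edgeR adjusted p = 1.58e-15). GBP2, a prenylated partner of GBP1, was the only GBP with a steady level without IFNg. Its levels were 4.28, 6.2 and 5.95 CPM in DMSO and 45.5, 39.8 and 45.2 CPM in IFNg, a log2 fold change of 2.97 (standard error 0.18, edgeR adjusted p = 3.13e-16). GBP3, per length the lowest member in IFNg alone, had 0, 1 and 0 counts in DMSO and 8, 7 and 12 with IFNg. It had too few counts for the test, and the ratio of the summed counts, scaled for depth, was 31.6 (exact 95% interval 5.2 to 1293, the counts being 27 and 1).

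**Figure D2:**
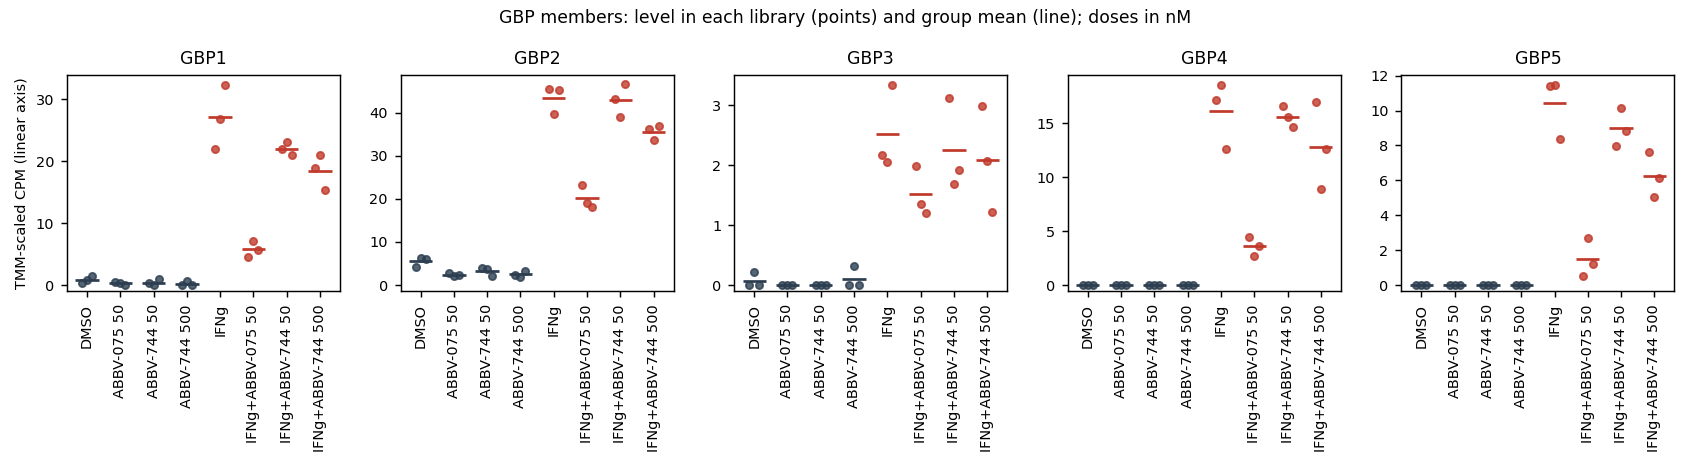
Level of the 5 GBP members in each of 24 libraries. The vertical axis is TMM-scaled CPM on a linear scale, points are libraries, lines are group means, red marks groups with IFNg and dark blue groups without. GBP4 and GBP5 are at 0 in all 12 libraries without IFNg, and GBP1, GBP2, GBP4 and GBP5 are lower with IFNg+ABBV-075 than in the other IFNg groups.

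The APOL members differed in how much they were expressed without IFNg. APOL6 rose from 62.3, 65.4 and 77.1 CPM in DMSO to 522, 549 and 516 CPM in IFNg (log2 fold change 2.95, standard error 0.08, edgeR adjusted p = 9.87e-27). APOL1 rose from 34.2, 31.2 and 35.2 to 99.4, 115 and 113 CPM, and APOL2 from 27.3, 20.6 and 26.7 to 82.5, 76 and 80.4 CPM. The last 2 genes, both already expressed in DMSO, had the smallest log2 fold changes of the members, 1.70 (standard error 0.11) for APOL1 and 1.68 (standard error 0.12) for APOL2. APOL3 rose from 12, 4 and 8 to 67, 92 and 79 counts, a log2 fold change of 3.51 (standard error 0.28). APOL4, whose product is less well studied, had 2, 0 and 0 counts in DMSO and 42, 32 and 45 with IFNg, a ratio of 69.6 (exact 95% interval 18.8 to 581) for 119 summed counts against 2.

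Per length, the order of the members changed with IFNg. In DMSO, APOL1 was highest with 12 ± 0.74 CPM per kb, followed by APOL2 with 10.2 ± 1.5 and APOL6 with 6.78 ± 0.78 (SD, n = 3 each). In IFNg, APOL6 led with 52.6 ± 1.7 CPM per kb, ahead of APOL1 with 39 ± 3 and APOL2 with 32.8 ± 1.4. The highest GBPs in IFNg were GBP2 with 10.6 ± 0.79 and GBP1 with 9.39 ± 1.8 CPM per kb, which did not differ beyond their spread from each other or from APOL3 with 11 ± 2.2. GBP4, GBP5 and GBP3 were at 2.62 ± 0.51, 1.53 ± 0.26 and 0.833 ± 0.23 CPM per kb.

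Of the family members that were not among the 10, GBP6, GBP7 and APOL5 had 0 counts in all 24 libraries. The pseudogene GBP1P1 had 0 counts in the 12 libraries without IFNg and 11, 3 and 12 with IFNg; its counts are uncertain as those of a copy of GBP1. In the other IFNg groups it had between 0 and 3 counts per library. It was too low for the edgeR test, and with DESeq2 it was called higher with IFNg, and lower than in IFNg alone with ABBV-075 and with ABBV-744 at 50 nM.

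None of the listed neighbours of the members that were tested was called with IFNg. Of 8 neighbours of the GBP genes, 7 were in the files and tested, and of 11 neighbours of the APOL genes 9 were tested. With edgeR 0 of these 16 were called, and 0 were called with DESeq2, where 3.46% of all genes were called in either direction with edgeR. With so few genes and so low a share, 0 calls do not set the neighbours apart from other genes. At an unadjusted p under 0.05 there were 2 neighbours of the GBP genes and 1 neighbour of the APOL genes. Their median log2 fold changes were 0.01 for both lists.

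Among 14 tested genes of IFNg signalling, 6 were upregulated by IFNg and none was downregulated, with a median log2 fold change of 0.67. IRF1 (log2 fold change 4.26), a transcription factor, and IRF9 (3.25), part of a complex that binds ISREs, were among them. Of 9 tested genes that act with GBPs or attach their lipid anchors, 3 were upregulated: CASP1 (log2 fold change 3.99), CASP4 (1.13) and GSDMD (0.90), the caspases and the pore protein of inflammasome responses. FNTA, FNTB and PGGT1B, subunits of the enzymes that attach prenyl anchors to GBPs, were not called (log2 fold changes -0.23, -0.00 and -0.14). Of 9 other dynamin-superfamily GTPases tested, MX1 (2.72) and MX2 (0.56), both antiviral, were upregulated.

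ABBV-075 added to IFNg asked how much of the induced level remained with the inhibitor. The sources used here do not state whether all IFNg groups had the same time and order of treatment. If they did not, treatment and time cannot be told apart in comparisons of these groups. Of the 9 members tested against IFNg alone, 8 were downregulated and none was upregulated, where 28.4% of 11187 genes were called lower. The median log2 fold change of the 9 members was -1.73, and that of all genes tested was -0.00. Past the second threshold there were 5 members, and 3.75% of all genes. GBP4, GBP5 and APOL4 had enough counts for this test through the libraries of IFNg alone, so a higher call was hardly open to them. The same 8 members were called with the GC correction described below, where 29.2% of genes were called lower. The corrected log2 fold changes of the GBPs were -3.24 for GBP5, -2.62 for GBP1, -2.38 for GBP4 and -1.32 for GBP2, and those of the APOLs -2.62 for APOL4, -1.46 for APOL1, -1.15 for APOL6 and -1.07 for APOL3.

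All 4 GBPs that could be tested fell with ABBV-075. GBP5 had 2, 10 and 4 counts with IFNg+ABBV-075 against 42, 39 and 30 with IFNg, and kept 14.1% of its mean IFNg level (log2 fold change -2.82, standard error 0.37, edgeR adjusted p = 3.4e-08). GBP1 was at 4.47, 7.06 and 5.72 CPM against 22.1, 26.8 and 32.4 CPM and kept 21.2% (log2 fold change -2.24, standard error 0.22, edgeR adjusted p = 6.91e-11). GBP4 was at 4.47, 2.71 and 3.61 CPM against 17.2, 18.6 and 12.6 CPM and kept 22.4% (log2 fold change -2.15, standard error 0.27). For each of these 3 genes all ABBV-075 libraries lay below all IFNg libraries. GBP2 was at 23.3, 19 and 18 CPM against 45.5, 39.8 and 45.2 CPM and kept 46.3% (log2 fold change -1.11, standard error 0.15, edgeR adjusted p = 6.96e-08). GBP3, not tested, had 8, 5 and 4 counts against 8, 7 and 12.

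Among the APOL members the size of the fall ranged from large to none that was called. APOL4 had 7, 5 and 5 counts with IFNg+ABBV-075 against 42, 32 and 45 and kept 13.8% (log2 fold change -2.84, standard error 0.33, edgeR adjusted p = 2.75e-09). APOL1 was at 31.8, 31.5 and 36.1 CPM, which kept 30.4% of the IFNg level (log2 fold change -1.73, standard error 0.12, edgeR adjusted p = 7.04e-15). This range overlapped that of the DMSO libraries, 31.2 to 35.2 CPM. APOL3 kept 42.9%, with 32, 45 and 29 counts against 67, 92 and 79 (log2 fold change -1.23, standard error 0.21), and APOL6 kept 58.5%, with 324, 308 and 298 CPM against 522, 549 and 516 CPM (log2 fold change -0.78, standard error 0.08). APOL2 was at 71.5, 70.3 and 70.7 CPM against 82.5, 76 and 80.4 CPM. Its groups did not overlap, but its log2 fold change of -0.18 (95% interval -0.40 to 0.05, edgeR adjusted p = 0.17) was not called, and with the GC correction described below it was 0.10.

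**Figure D3:**
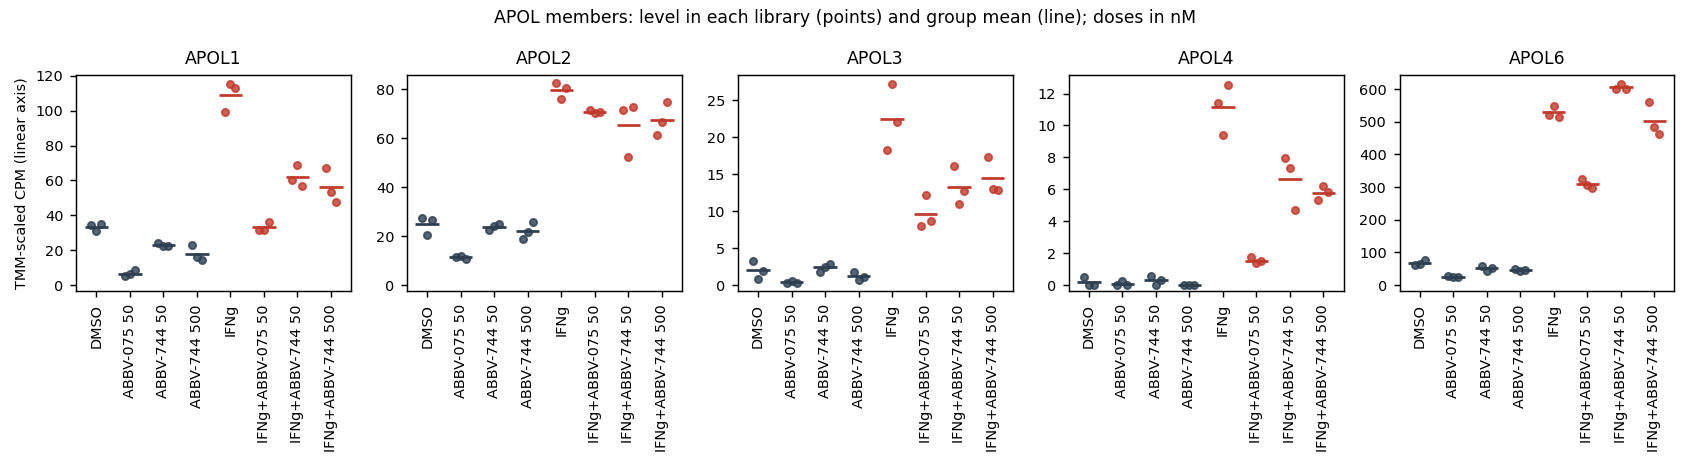
Level of the 5 APOL members in each of 24 libraries. The vertical axis is TMM-scaled CPM on a linear scale, points are libraries, lines are group means, red marks groups with IFNg and dark blue groups without. APOL1 with IFNg+ABBV-075 (mean 33.1 CPM) is at the level of DMSO (mean 33.6 CPM), and APOL2 stays between 52.5 and 82.5 CPM in all IFNg libraries.

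Genes of IFNg signalling were called in both directions with ABBV-075, at 6 higher and 4 lower of 14 tested (median log2 fold change 0.20), where 28.2% of all genes were called higher and 28.4% lower. IRF1 was at 229 ± 21 CPM in IFNg and 224 ± 17 CPM in IFNg+ABBV-075 (SD, n = 3 each). SOCS3 (log2 fold change -1.41), a feedback inhibitor, STAT2 (-1.36), IFNGR2 (-0.86), a receptor chain, and IRF9 (-0.82) fell. PIAS1 (log2 fold change 1.44), an inhibitor of the pathway, JAK2 (0.86), a kinase of the receptor, and PTPN11 (0.47), a phosphatase, rose. The longest transcripts of these genes that rose have 36.65% to 41.51% GC, and those of the named genes that fell 50% to 59.99%. The part of GC content in these values was not tested. Of the 9 GBP partners, 4 were called higher and 3 lower, among the latter CASP1 (-3.13) and CASP4 (-1.30), which had risen with IFNg. With the GC correction described below CASP1 was at -3.48 and CASP4 at -1.84. FNTA (0.45) and PGGT1B (0.65), both called higher, turned to -0.04 and -0.16, and the other called partners kept their sign. MX1 (-2.48) and MX2 (-1.28) fell too, with 3 of 9 dynamin-superfamily GTPases lower and 4 higher. Of the 7 neighbours of the GBP genes, 3 were called higher and 1 lower, and of the 9 neighbours of the APOL genes 2 higher and 4 lower.

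Without IFNg, the members that were expressed in DMSO were also lower with ABBV-075. Only GBP2, APOL1, APOL2 and APOL6 had enough counts for the test, and all 4 were downregulated, where 19.6% of 11244 genes were called lower. GBP2 had enough counts for this test through its DMSO libraries, so a higher call was hardly open to it. APOL1 fell from 34.2, 31.2 and 35.2 CPM in DMSO to 5.06, 6.31 and 8.41 CPM (log2 fold change -2.38, standard error 0.21, edgeR adjusted p = 7.67e-06), the only one of the 4 past the second threshold (3.19% of genes). APOL6 fell to 28.9, 23.8 and 25.2 CPM (log2 fold change -1.41, standard error 0.15) and APOL2 to 11.3, 12 and 10.5 CPM (log2 fold change -1.15, standard error 0.19). In all 3 genes the groups did not overlap. All 4 members were also called with the GC correction, at -2.24 for APOL1, -1.69 for APOL6, -1.35 for GBP2 and -0.99 for APOL2. If the 24 h of the methods hold for these DMSO libraries, treatment and time cannot be told apart here. GBP2 had 12, 7 and 8 counts against 16, 28 and 25 (log2 fold change -1.18, standard error 0.31, edgeR adjusted p = 0.0106). Its call was lost without ABBV-075 replicate 2 (adjusted p = 0.0508) and with DESeq2 (adjusted p = 0.0719). APOL3 had 1, 2 and 1 counts against 12, 4 and 8 and was not tested. GBP1 had 2, 1 and 0 counts against 1, 4 and 6, so that DMSO was 3.23 times as high, with an exact 95% interval of 0.853 to 18 that includes 1.

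Since the level without IFNg was lower with ABBV-075 as well, the induction itself was compared. If the 24 h of the methods hold for these DMSO libraries, treatment and time cannot be told apart here either. APOL1 was 3.25 times as high in IFNg as in DMSO (ratio of means), and 5.03 times as high in IFNg+ABBV-075 as in ABBV-075. For APOL2 these ratios were 3.2 and 6.27, for APOL6 7.75 and 11.9, and for GBP2 7.94 and 8.27. Tested as an interaction over the 4 groups, 0 of the 5 members above the limit of detection in each group were called with edgeR, where 0.0347% of 11530 genes were called. The difference of log2 fold changes was 0.96 for APOL2 (95% interval 0.55 to 1.37, edgeR adjusted p = 0.108), 0.64 for APOL1 (0.16 to 1.11), 0.61 for APOL6 (0.30 to 0.93), 1.09 for APOL3 (-0.46 to 2.63) and 0.05 for GBP2 (-0.54 to 0.64). At an unadjusted p under 0.05 there were 3 members, APOL1, APOL2 and APOL6, and with DESeq2 1, APOL2 (adjusted p = 0.0392). APOL2 was also called with the GC correction (1.08, edgeR adjusted p = 0.00619), where 0.234% of genes were called, without a filter on low counts (adjusted p = 0.0188), and without ABBV-075 replicate 1 (adjusted p = 0.0245), and APOL6 without that same library (adjusted p = 0.027).

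With both inhibitors, log2 fold changes over all genes moved with the GC content of the transcripts. In IFNg+ABBV-744 at 50 nM against IFNg, genes with low GC content (up to 43.1%, the lowest of 3 equal bins) had a median log2 fold change of 0.62, and those with the highest GC content (from 52.8%) one of -0.32. These medians were 0.49 and -0.24 with ABBV-744 at 500 nM and 0.45 and -0.20 with ABBV-075 in IFNg, and without IFNg 0.33 and -0.16 with ABBV-075, -0.28 and 0.22 with ABBV-744 at 50 nM, and -0.15 and 0.14 at 500 nM. The members sit on both sides: the longest transcripts of the GBPs and APOL6 have 39.8% to 42% GC, and those of APOL1 and APOL2 51.5% and 53%. A GC correction, which removes from each library the smooth trend of its deviations over GC content, was applied to each comparison. The part of GC content in the uncorrected values was not tested.

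With ABBV-744 at 50 nM and IFNg, 3 of 9 members were downregulated (24.3% of 11150 genes called lower) and 1 was upregulated (27.4% called higher). APOL1 was at 60.4, 69.1 and 56.8 CPM against 99.4, 115 and 113 CPM with IFNg alone, which kept 56.9% (log2 fold change -0.79, standard error 0.10, edgeR adjusted p = 9.61e-08; -0.54 with the GC correction). APOL3 had 67, 39 and 46 counts against 67, 92 and 79 (log2 fold change -0.72, edgeR adjusted p = 0.00149; -0.67 corrected), and APOL4 33, 26 and 17 counts against 42, 32 and 45 (log2 fold change -0.71, edgeR adjusted p = 0.0136; -0.57 corrected, adjusted p = 0.064). In CPM, none of these 3 genes overlapped with IFNg alone. The call of APOL4 was lost without IFNg replicate 3 (adjusted p = 0.0553), without IFNg+ABBV-744 50 nM replicate 3 (adjusted p = 0.09) and with DESeq2 (adjusted p = 0.0814).

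APOL6 went from called higher to called lower with the correction. It was at 599, 615 and 602 CPM against 522, 549 and 516 CPM, all above IFNg alone. The log2 fold change was 0.21 (standard error 0.07, edgeR adjusted p = 0.0118). Corrected for GC content it was at -0.33 (adjusted p = 0.000102), so no direction can be given for it. Fitted with all 24 libraries, the increase was not called (adjusted p = 0.0834). The GBPs were not called before the correction: GBP1 at -0.28 (95% interval -0.59 to 0.04), GBP2 at -0.00 (-0.25 to 0.24), GBP4 at -0.02 (-0.40 to 0.36) and GBP5 at -0.20 (-0.66 to 0.26). Their libraries overlapped those of IFNg, with 21.9, 23.1 and 21 CPM for GBP1 and 43.1, 38.9 and 46.6 CPM for GBP2. With the correction GBP1 (-0.82), GBP2 (-0.36) and GBP5 (-0.79) were called lower and GBP4 (-0.41, adjusted p = 0.0735) was not, where 18.2% of genes were called lower. Without the correction GBP1 was called without IFNg replicate 1 (log2 fold change -0.40, adjusted p = 0.0303). APOL2 had a log2 fold change of -0.26 (95% interval -0.48 to -0.03, edgeR adjusted p = 0.0553) and 0.03 with the correction, and was called without either IFNg+ABBV-744 50 nM replicate 1 (adjusted p = 0.0305) or replicate 3 (adjusted p = 0.0209).

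With ABBV-744 at 500 nM and IFNg, 5 of 9 members were downregulated (22.8% of 11091 genes called lower). APOL1 was at 67.1, 53.6 and 47.6 CPM and kept 51.4% (log2 fold change -0.98, standard error 0.12, edgeR adjusted p = 3.99e-08; -0.71 with the GC correction), and APOL4 had 16, 21 and 19 counts and kept 52% (log2 fold change -0.95, edgeR adjusted p = 0.00248; -0.75 corrected). These 2 calls held in each fit that left out 1 library. APOL3 had 52, 44 and 42 counts (log2 fold change -0.66, edgeR adjusted p = 0.0056; -0.52 corrected), and was not called without IFNg replicate 2 (adjusted p = 0.0588). GBP1 was at 18.9, 21 and 15.3 CPM (log2 fold change -0.57, edgeR adjusted p = 0.00878; -0.97 corrected), and GBP5 at 7.64, 5.03 and 6.14 CPM (log2 fold change -0.75, edgeR adjusted p = 0.0178; -1.20 corrected). Neither overlapped with IFNg alone, but both calls were lost with DESeq2 (adjusted p = 0.0623 and 0.115). GBP1 was not called without IFNg replicate 3 (adjusted p = 0.0758) or IFNg+ABBV-744 500 nM replicate 3 (adjusted p = 0.0672), and GBP5 without IFNg replicate 1 (adjusted p = 0.0618), IFNg replicate 2 (adjusted p = 0.0628) or IFNg+ABBV-744 500 nM replicate 2 (adjusted p = 0.103).

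The 4 members that were not called with ABBV-744 at 500 nM had log2 fold changes of -0.31 for GBP2 (95% interval -0.57 to -0.04), -0.36 for GBP4 (-0.81 to 0.10), -0.25 for APOL2 (-0.48 to -0.02) and -0.09 for APOL6 (-0.26 to 0.08). After the correction 8 of 9 members were called lower, all but APOL2 at 0.03, where 19.4% of genes were; GBP2 was then at -0.54, GBP4 at -0.62 and APOL6 at -0.50. Without the correction APOL2 was called without IFNg+ABBV-744 500 nM replicate 3 (adjusted p = 0.0371). With DESeq2 3 members were called, APOL1, APOL3 and APOL4. In these comparisons with IFNg the 3 inhibitor groups share the IFNg libraries, so their values are not independent of each other.

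**Figure D4:**
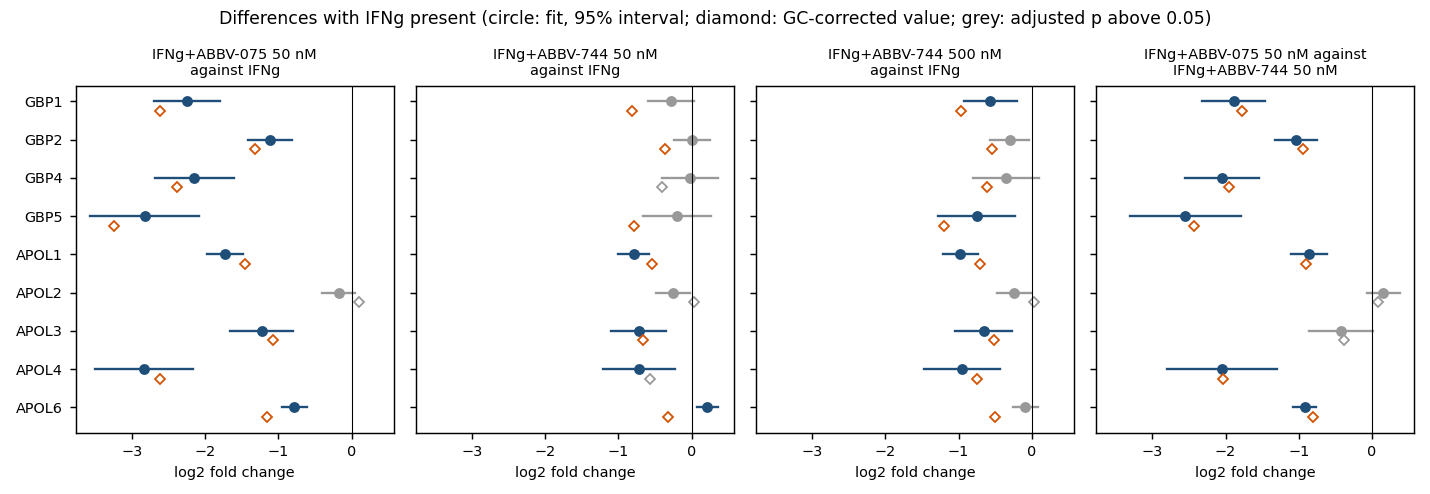
Log2 fold changes of 9 members with IFNg present, in 4 comparisons. Circles are the edgeR values with 95% intervals, diamonds the values with the GC correction, and grey marks an adjusted p above 0.05. With ABBV-075 8 members are lower in both fits, while with ABBV-744 at 50 nM APOL6 is at 0.21 without and at -0.33 with the correction.

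Without IFNg, APOL1 was lower with ABBV-744 than in DMSO at both doses. Against DMSO, 2 of 4 members were downregulated at 50 nM (10.1% of 11116 genes called lower) and 3 of 4 at 500 nM (7.8% of 11124). At both doses GBP2 had enough counts for the test through its DMSO libraries, so a higher call was hardly open to it. APOL1 was at 24.1, 22.6 and 22.5 CPM at 50 nM (log2 fold change -0.53, standard error 0.15, edgeR adjusted p = 0.0146) and at 22.9, 16 and 14.4 CPM at 500 nM (log2 fold change -0.91, standard error 0.17, edgeR adjusted p = 0.000313), and neither overlapped with 31.2 to 35.2 CPM in DMSO. Corrected for GC content these were -0.64 and -0.99, both called. The call at 50 nM was lost without DMSO replicate 3 (adjusted p = 0.0783) and without ABBV-744 50 nM replicate 3 (adjusted p = 0.0542). APOL6 was at 58.6, 43.9 and 52.9 CPM at 50 nM (log2 fold change -0.39, edgeR adjusted p = 0.0322) and at 48.2, 43.2 and 47.7 CPM at 500 nM (log2 fold change -0.55, edgeR adjusted p = 0.00197). Corrected, the value at 50 nM was -0.14 and not called (adjusted p = 0.44), and that at 500 nM was -0.41 (adjusted p = 0.00422). The call of APOL6 at 50 nM was also lost with DESeq2 (adjusted p = 0.0731) and without DMSO replicate 2 or 3 or ABBV-744 50 nM replicate 2 or 3 (adjusted p from 0.0877 to 0.209).

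GBP2 had 13, 12 and 7 counts at 50 nM (log2 fold change -0.73, 95% interval -1.41 to -0.04, edgeR adjusted p = 0.125) and 8, 6 and 11 counts at 500 nM (log2 fold change -1.14, edgeR adjusted p = 0.0246), against 16, 28 and 25 in DMSO. Corrected, GBP2 was at -0.53 and not called at 50 nM, and at -1.03 and called at 500 nM. The call at 500 nM was lost with DESeq2 (adjusted p = 0.148) and without DMSO replicate 2 or 3 or ABBV-744 500 nM replicate 1 or 2 (adjusted p from 0.0613 to 0.114). APOL2 was at 22.6, 24.1 and 25 CPM at 50 nM and at 18.9, 21.7 and 25.8 CPM at 500 nM, both overlapping DMSO. Its log2 fold changes were -0.04 (95% interval -0.37 to 0.29) and -0.15 (-0.49 to 0.19), and -0.18 and -0.25 with the correction. APOL3 had 6, 8 and 9 counts at 50 nM and 6, 2 and 4 at 500 nM, and APOL4 between 0 and 2 counts per library.

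**Figure D5:**
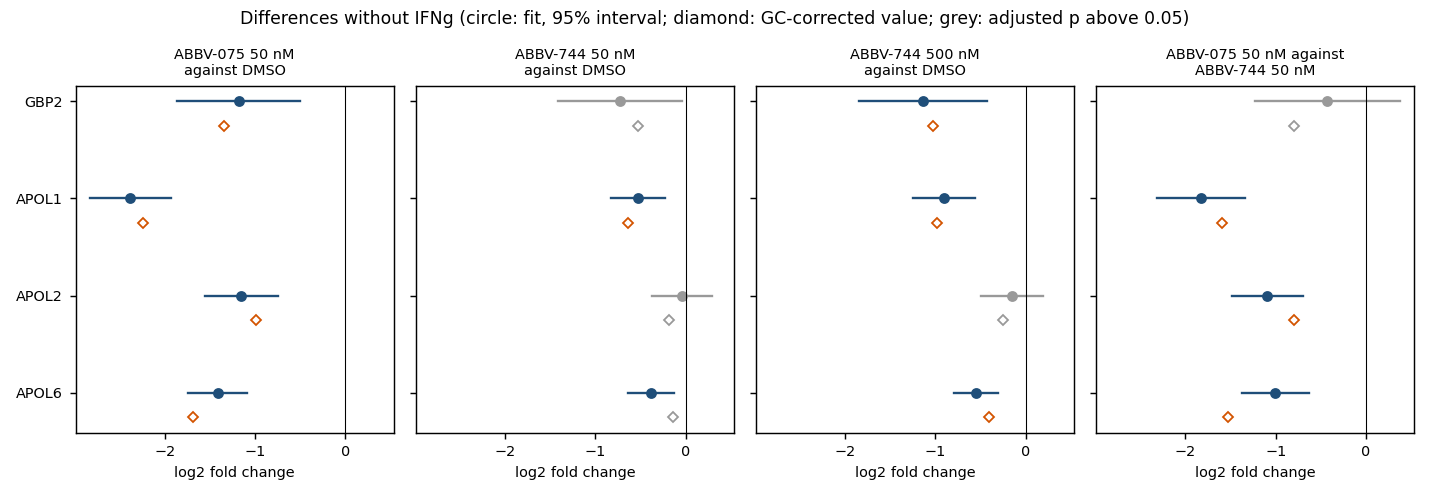
Log2 fold changes without IFNg of the 4 members with enough counts to be tested. Circles are the edgeR values with 95% intervals, diamonds the values with the GC correction, and grey marks an adjusted p above 0.05. With ABBV-075 all 4 members are lower than in DMSO, from -1.15 for APOL2 to -2.38 for APOL1.

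The 2 inhibitors were compared directly only at the matched dose of 50 nM, without and with IFNg, in 2 comparisons whose p-values were each adjusted over all genes; a matched time is not stated. Without IFNg, 3 of 4 members were lower with ABBV-075 than with ABBV-744 (19.4% of 10992 genes called lower). APOL1 differed by -1.83 on the log2 scale (standard error 0.22, edgeR adjusted p = 0.000529), APOL2 by -1.09 (standard error 0.18) and APOL6 by -1.003 (standard error 0.167), and none of the 3 overlapped. GBP2 differed by -0.43 with a 95% interval of -1.23 to 0.38. Corrected for GC content, APOL1 (-1.59), APOL6 (-1.53) and APOL2 (-0.80) were called and GBP2 (-0.79) was not.

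With IFNg, 7 of 9 members were lower with ABBV-075 than with ABBV-744 at 50 nM (17% of 11126 genes called lower). The median difference of the 9 members was -1.04 on the log2 scale, against 0.01 for all genes. Here GBP4, GBP5 and APOL4 had enough counts for the test through the ABBV-744 libraries, so a higher call was hardly open to them. The 4 tested GBPs differed by -2.55 for GBP5 (standard error 0.37), -2.05 for GBP4 (0.25), -1.89 for GBP1 (0.21) and -1.04 for GBP2 (0.14), each without overlap. APOL4 (-2.05), APOL6 (-0.92) and APOL1 (-0.86) were lower as well. The same 7 members were called with the GC correction, from -2.44 for GBP5 to -0.81 for APOL6, where 18.3% of genes were called lower. APOL2 differed by 0.15 (95% interval -0.07 to 0.38) and APOL3 by -0.43 (-0.87 to 0.01), and their libraries overlapped. GBP3 had 8, 5 and 4 counts with ABBV-075 and 13, 6 and 7 with ABBV-744.

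Between the doses of ABBV-744 with IFNg, 0 of 9 members were called with edgeR and 0 of the 4 that had an adjusted p with DESeq2 (1.7% of 11022 genes in either direction with edgeR), and 1 member, APOL6, had an unadjusted p under 0.05. Its levels were 562, 484 and 463 CPM at 500 nM against 599, 615 and 602 CPM at 50 nM, a log2 fold change of -0.24 (95% interval -0.40 to -0.09, edgeR adjusted p = 0.103). Without IFNg+ABBV-744 500 nM replicate 1 it was called (-0.31, adjusted p = 0.00839). The other members ranged from -0.49 for GBP5 (95% interval -1.01 to 0.04) to 0.13 for APOL3 (-0.28 to 0.53). ABBV-744 at 500 nM and ABBV-075 at 50 nM differ in dose, so their values stand side by side only: with IFNg, GBP1 was at 18.4 ± 2.9 and 5.75 ± 1.3 CPM, APOL1 at 56.1 ± 10 and 33.1 ± 2.6 CPM, and APOL2 at 67.7 ± 6.8 and 70.8 ± 0.59 CPM (SD, n = 3 each).

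The interaction with IFNg was also tested for ABBV-744. At 50 nM, 1 of 6 members above the limit of detection in each group was called higher, APOL6, where 25% of 11451 genes were. Its ratio of means with and without IFNg was 7.75 in DMSO and 11.7 with ABBV-744, a difference of log2 fold changes of 0.57 (standard error 0.14, edgeR adjusted p = 0.000956), and -0.19 with the GC correction (adjusted p = 0.274). Without DMSO replicate 1, 2 members were called higher at 50 nM, APOL6 and GBP2, and 1 was called lower, APOL3. The differences not called at 50 nM were 0.72 for GBP1, 0.70 for GBP2, -0.30 for APOL1, -0.25 for APOL2 and -1.06 for APOL3, and those of GBP1, APOL1 and APOL2 changed sign with the correction. At 500 nM, 2 of 5 members were called higher, where 18.5% of 11428 genes were. APOL6 had a difference of 0.48 (standard error 0.14, edgeR adjusted p = 0.00813), and -0.08 with the GC correction (adjusted p = 0.705). GBP2 had a difference of 0.85 (standard error 0.34, edgeR adjusted p = 0.0492), and 0.50 with the correction (adjusted p = 0.358). APOL1 (-0.05), APOL2 (-0.08) and APOL3 (0.04) were not called, and each changed sign under an alternative. The direction for APOL6 turned with the correction at both doses. The call of GBP2 was lost with DESeq2 (adjusted p = 0.0963) and in 9 of the fits that left out 1 library (adjusted p from 0.059 to 0.155).

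Ordered over all 8 groups, the members shared a pattern, which is given as a description. IFNg alone had the highest mean for 9 members, the exception being APOL6 with 606 ± 8.6 CPM in IFNg+ABBV-744 50 nM against 529 ± 17 in IFNg. For each GBP member the libraries of IFNg alone overlapped those of IFNg+ABBV-744 50 nM, so these groups cannot be ranked there. GBP1, GBP2, GBP4, GBP5, APOL4 and APOL6 had IFNg+ABBV-075 as the lowest of the IFNg groups, with no overlap with the next group on either side. For APOL2, IFNg+ABBV-075 ranked 2 among the IFNg groups, and it overlapped with IFNg+ABBV-744 500 nM. For APOL1, IFNg+ABBV-075 overlapped with DMSO, which happened for no other member. Over the 24 libraries, the genes most like GBP2, the GBP with the most counts, among 11693 genes were APOL6 (Pearson r of log2 CPM 0.985), PARP9 (0.983) and UBD (0.983). Those most like APOL6 were UBD (0.994), PARP9 (0.993) and DTX3L (0.991). The 24 libraries are 8 groups of replicates that fall into those with and without IFNg, so these values have no test.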

How the data were processed

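The 24 libraries were grouped by the titles in the labels. The authors depleted ribosomal RNA, ran Trimmomatic 0.33 and the aligner STAR 2.7.1 (genome build GRCh38) and deposited raw read counts per gene symbol, without normalization (CASAVA 1.8.2 and DESeq2 are also named in the submitters' processing notes). The annotation used for counting is not given in the sources used here. Reads that align to several places (56% to 69.4%) are not in the gene counts. Counts came from column 4, which holds reads that match each gene's own strand, and rows that name no gene were left out of library sizes.

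Genes were filtered with filterByExpr, normalized with TMM and tested with glmQLFit and glmQLFTest (edgeR 4.0.16, R 4.3.3) on the groups compared, without covariates. P-values were Benjamini-Hochberg adjusted over all genes tested, and a gene was called at an adjusted p of at most 0.05. The study's threshold on the absolute log2 fold change of 1.5 was a second rule. Standard errors are the log2 fold change divided by the root of F. A member at or under 3 counts summed over a group was at the floor, and its fold is a bound or a ratio with an exact binomial interval. An interaction was given only for members above the floor in all 4 groups. P-values set the difference between groups against the spread between libraries of a group, estimated with information from all genes. That spread may be technical. The GC correction subtracts a lowess curve (span 0.3) of log2 CPM deviations (prior count 2) on the GC content of the longest transcript, known for over 98% of genes tested.

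Alternatives were RLE, library size only, no filter, at least 10 counts in every library, DESeq2 1.42.0, all 24 libraries, a replicate block, unstranded counts, the GC correction, both together, the second call rule, and each replicate left out. The edgeR fits of 2 groups and of an interaction were tested on simulated data. For 2 groups so were the replicate block, DESeq2 and the GC correction, and the other alternatives were not. Promoter sequences are from RefSeq, GRCh38.p14. The members, the lists of other genes and the markers were chosen with earlier results of these data known. All 10 members are named, and at most 3 called genes a direction are named from other lists. FNTA, FNTB, PGGT1B, PTPN11 and IRF9 (with ABBV-075) were named after their values were seen. Values of 1 gene on the list of IFNg signalling are not reported here.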

Additional observations from a re-analysis of the deposited data

Results flagged for a closer look

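The log2 fold changes of 2 members differed between backgrounds by a test of the interaction over 4 groups of 3 libraries, with edgeR's quasi-likelihood test and Benjamini-Hochberg adjustment over all genes. For APOL6 the log2 fold change by IFNg was larger with ABBV-744 at 50 nM than in DMSO by 0.57 (adjusted p = 0.000956), and with ABBV-744 at 500 nM by 0.485 (adjusted p = 0.00813). Corrected for GC content, these differences were -0.19 and -0.08 and were not called. For GBP2 the difference at 500 nM was 0.853 (adjusted p = 0.0492), and it was 0.50 with the correction and not called. Of all genes, 25% at 50 nM and 18.5% at 500 nM were called in this direction. No group has enough libraries for a test of single samples that stand apart.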

How the results depend on the processing

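Of 86 log2 fold changes of members, 48 were called, and 3 of these turned sign under an alternative; 10 lost their call under an alternative other than the second threshold. Of 1531 recomputed values 1369 kept direction and call, 74 lost the call, 33 gained it and 55 turned sign. Where no cause is given, it was not tested.

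With at least 10 counts in every library, 4 members could be tested for IFNg against DMSO, all called higher, since GBP4, GBP5 and others at low counts left the test. With 1.5 required on the log2 scale, the members called lower were 1 for ABBV-075 against DMSO, 0 for ABBV-744 at 50 and 500 nM against DMSO, 5 for IFNg+ABBV-075, 0 for IFNg+ABBV-744 at either dose, and 1 without and 4 with IFNg for ABBV-075 against ABBV-744; those called higher were 0 for IFNg+ABBV-744 50 nM and 0 for both ABBV-744 interactions. These follow from the stricter rule.

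For ABBV-744 50 nM against DMSO, 1 member was called lower with DESeq2 and with the GC correction (2 otherwise). For IFNg+ABBV-744 50 nM, the GC correction gave 6 lower and 0 higher, and the fit of all 24 libraries 0 higher. For IFNg+ABBV-744 500 nM there were 3 lower with DESeq2 and 8 with the GC correction. For the interaction with ABBV-075, 1 was higher without a filter, with DESeq2 and with the GC correction. For the interaction with ABBV-744 at 50 nM, 2 were higher by library size only and with all 24 libraries, and 0 with the GC correction; at 500 nM 1 was higher without a filter, with at least 10 counts and with DESeq2, and 0 with the GC correction. Between the doses of ABBV-744 with IFNg, 1 was lower by library size only.

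Log2 fold changes turned sign as follows. APOL2 with the GC correction was at 0.0981 (IFNg+ABBV-075), 0.0286 (IFNg+ABBV-744 50 nM) and 0.0317 (500 nM), and APOL6 at -0.328 (IFNg+ABBV-744 50 nM), with differences of -0.189 and -0.0825 in the interactions with ABBV-744 at 50 and 500 nM. Of the differences that were not called in these interactions, GBP1 (-0.0191), APOL1 (0.0926) and APOL2 (0.201) at 50 nM and APOL1 (0.268) and APOL2 (0.271) at 500 nM turned with the GC correction, and APOL1 (0.0390) and APOL2 (0.0125) at 500 nM by library size only. For IFNg+ABBV-744 50 nM, GBP2 was at 0.0528 by library size only, 0.0173 without a filter and 0.000367 with DESeq2, and GBP4 at 0.0334 by library size only. Between the doses, APOL2 was at -0.0116 by library size only.

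Leaving out 1 library at a time, the members called lower ranged from 0 to 2 for ABBV-744 50 nM against DMSO, from 3 to 5 for IFNg+ABBV-744 500 nM and from 0 to 1 between the doses. Those higher in the interactions ranged from 0 to 2 for ABBV-075, 1 to 2 for ABBV-744 50 nM (lower 0 to 1) and 1 to 2 for 500 nM. The values that turned sign ranged from -0.156 to 0.0287 for APOL2 with ABBV-744 50 nM, from -0.0825 to 0.0479 for GBP2 and from -0.187 to 0.0943 for GBP4 with IFNg+ABBV-744 50 nM, from -0.0728 to 0.209 for GBP2 in the interaction with ABBV-075, from -0.202 to 0.225 for APOL1, -0.154 to 0.0775 for APOL2 and -0.439 to 0.461 for APOL3 in the interaction with ABBV-744 at 500 nM, and from -0.00375 to 0.298 for APOL3 and from -0.0577 to 0.147 for APOL2 between the doses.

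Groups share replicate numbers, but no 2 groups had all 3 same-numbered pairs correlated above 0.1, so the numbers were not taken as pairs. With a replicate block, 1 member was called lower for ABBV-744 50 nM against DMSO (APOL6 lost, adjusted p = 0.0575) and 1 higher in the interaction with ABBV-744 500 nM (GBP2 lost, adjusted p = 0.055), while APOL2 with IFNg+ABBV-744 50 nM (adjusted p = 0.0401) and GBP2 and APOL2 at 500 nM (adjusted p = 0.0337 and 0.033) were called. With the GC correction and the block together the counts of members given for the correction above were the same, and the values that turned sign were 0.0975, 0.0199 and 0.0323 for APOL2, and -0.326, -0.192 and -0.0822 for APOL6, and in the interactions with ABBV-744 -0.0229 for GBP1, 0.0921 for APOL1 and 0.194 for APOL2 at 50 nM and 0.269 for APOL1 and 0.274 for APOL2 at 500 nM.

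Gene counts took 12% to 16.8% of the reads. GBP1, GBP3 and APOL4 were near the limit of detection without IFNg, and their differences between those groups were not detectable at this depth.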
